A study of Homo sapiens with 4 samples.

Results

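The control-hairpin line of K562 cells was described on its own, from 2 of the 4 Illumina expression bead arrays of the series, as the level of every named gene before any comparison. K562 is an established human cell line of erythroleukemic type. It was started from a patient whose chronic myeloid leukemia had turned to blast crisis and it carries the BCR-ABL fusion. The cells came from ATCC, a cell bank, and the line used here stably carried a control short hairpin RNA, so the hairpin vector is part of this baseline. The other 2 arrays, from K562 cells with a stable KLF3 hairpin, were not compared here. The members are the arrays labelled K562 Control and K562 Control - R, called array 1 and array 2 below, and signals are given for array 1 and then array 2. The labels call the second array a repeat and do not say that it came from a separate culture, so the spread between the arrays may be technical, and both stand for 1 line. RNA was extracted with Trizol and labelled with biotin through Illumina's amplification kit.

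K562 cells are arrested early on the path from a myeloid progenitor to the red cell. In red cell development GATA1, TAL1 and KLF1 switch on the globins, the enzymes of heme synthesis, the iron importers and the proteins of the membrane skeleton, while genes of the white cell and platelet lineages are turned down. Human globins are made in an embryonic, a fetal and an adult set, and K562 is known for making the embryonic and fetal sets. The BCR-ABL kinase signals through STAT5, which drives PIM1, SOCS2, CISH and BCL2L1.

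A gene was called detected where at least 1 of its probes had a deposited detection p under 0.01 on both arrays, which means that its signal exceeded nearly all negative-control beads. Of 47322 probes, 15227 (32.2%) passed on both arrays, 1662 on 1 array and 30433 on neither. Of 20045 named genes, 9302 (46.4%) were detected. A further 630 had no such probe but at least 1 that passed on 1 array, and 10113 passed on neither. The share of each group of genes below is read against this 46.4%. Over protein-coding genes alone the share was 50.1%, so a group at 50% lies above the first share and not above the second. On array 1 the highest signal that missed the threshold was 156.172 and the lowest that passed was 156.189, and on array 2 these were 156.433 and 156.452. The deposited signals carry the background, so undetected genes read between 95.8 and 171 as a mean and not 0. In RNA of a whole culture, fewer cells of a type and less RNA per cell cannot be told apart. Of the detected genes 2142 had at least 1 further probe that was not called on both arrays. Genes with 1 probe were detected at 41.4% and genes with several probes at 56.4%. The gene lists were not matched to all genes by number of probes. An undetected gene has only an upper bound, and probes differ in how well they bind, so ranks order probe signals and give no ratio of transcripts between genes.

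The arrays repeated each other closely. Across all probes the log2 signals correlated with r = 0.997 and Spearman's rho = 0.939, across detected probes with r = 0.998 and across undetected probes with r = 0.821; probes are not replicates. Detected probes differed by a standard deviation of 0.0991 on the log2 scale, with a median coefficient of variation of 3.12%, and 5 of them differed by more than 0.5. The largest differences among detected genes were in BLOC1S1, a subunit of a lysosome-related complex, with 506 and 299 (log2 ratio of -0.76), and FUT8, a fucosyltransferase, with 336 and 235 (-0.52). BNIP3L, the receptor that clears mitochondria from maturing red cells, read 729 and 1014 (0.48). UBE2J2 read 321 and 454, NAPA 213 and 301 and MAPRE2 682 and 951.

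**Figure D1:**
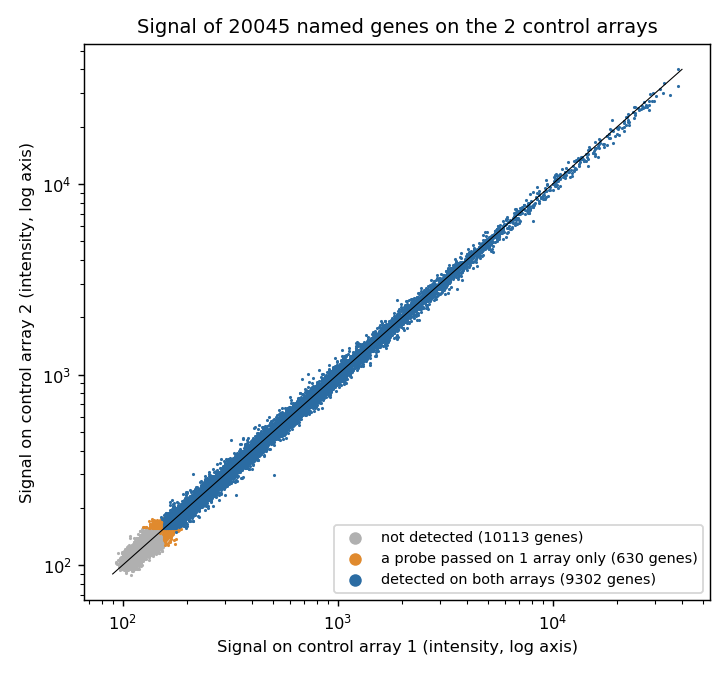
Signal of each named gene on array 1 (horizontal) and array 2 (vertical), both as intensity on log axes, with 1 point per gene (brightest probe) and the line of equal signal. The 9302 detected genes (blue) follow the line up to 40048, and the 630 genes with a probe that passed on 1 array only (orange) sit at the detection limit.

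The highest probe signals belonged to the protein synthesis machinery. EEF1A1, the elongation factor that brings aminoacyl-tRNA to the ribosome, ranked first with 38312 and 40048, and the ribosomal protein gene RPL41 was second with 38512 and 32898. With the mean of a gene's probes in place of the brightest, EEF1A1 ranked 3 and RPL41 28, and 12 of the 25 highest genes stayed. The mean of the 2 RPL41 probes was 18037, so its second probe read far lower than the first. Of the 25 highest genes, those named after ribosomal proteins were RPL41, RPS29, RPS12, RPL6, RPL18, RPS27, RPLP2, RPS16, RPL32, RPS25, RPLP1, RPS10 and RPS19. RPL13AP5, RPL13AP20, RPSAP9, SLC7A5P2 and ANXA2P2 are annotated as pseudogenes, whose probes may also bind near-identical parent transcripts. The remaining ones were TPT1, TMSB4X, FTL, F2R, CLUAP1 and LAIR1. FTL, the light chain of the iron store ferritin, read 26294 and 25070.0. F2R, the thrombin receptor, read 28523 and 29824 on the brightest of its 2 probes. Under the mean of its probes (14737) F2R fell to rank 46, so its second probe, though detected, read far lower. In all, 72 of 76 cytosolic ribosomal protein genes were detected, with a median signal of 13619 against 151 over all named genes. The undetected ones were RPL10 (135 and 126), RPL10L (143 and 143), RPL22L1 (130.3 and 129) and RPL3L (131 and 139), of which RPL10L and RPL3L are the testis and muscle paralogs of RPL10 and RPL3. Detected members of the ribosomal list ranged down to RPL28 (218 and 243), so probe signals within this family spanned a wide range.

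Transcripts of ribosomal proteins and elongation factors typically start with a C followed by a run of C or T, the 5′ terminal oligopyrimidine (TOP) tract, through which their translation is tied to growth signals. The starts of genes from the top of the ranking are shown to let this be seen beside the signals. Each is 30 bases, 10 before and 20 from the annotated start, read 5′ to 3′ on the gene's own strand (RefSeq, GRCh38.p14). Capitals mark the run of C and T from the start where it opens with C and at least 4 further bases of C or T.
EEF1A1, chr6:73521013-73521042, minus strand: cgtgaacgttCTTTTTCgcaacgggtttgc
RPS12, chr6:132814559-132814588, plus strand: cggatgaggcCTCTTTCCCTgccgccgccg
RPL18, chr19:48619159-48619188, minus strand: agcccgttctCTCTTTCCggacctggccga
TPT1, chr13:45341164-45341193, minus strand: ctgagtcggcCTTTTCCgcccgctcccccc
RPLP2, chr11:809957-809986, plus strand: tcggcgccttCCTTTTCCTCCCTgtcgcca
RPLP1, chr15:69452808-69452837, plus strand: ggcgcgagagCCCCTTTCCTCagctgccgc
SNHG5, chr6:85678714-85678743, minus strand: gcacttcggtCTTTTacgtcggccttcgcg
RPS29, chr14:49598691-49598720, minus strand: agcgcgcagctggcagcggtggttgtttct
TMSB4X, chrX:12975100-12975129, plus strand: cccgcccgacaactcggtggtggccactgc
FTL, chr19:48965299-48965328, plus strand: acgtcccctcgcagttcggcggtcccgcgg
EEF1A1, RPS12, RPL18, TPT1, RPLP2 and RPLP1 carry the run at the annotated base, as does SNHG5, a long noncoding RNA that hosts small nucleolar RNAs and read 13499.9 and 13767. RPS29, TMSB4X and FTL do not at the annotated start, and RPS29 read 31579 and 31399 all the same. Of the 25 highest genes, 19 had an entry in the promoter table and 12 of these had such a start. Of the 40 highest, 29 had an entry and 16 had it. A match in these letters describes the annotated start only, and its absence says nothing about starts used in K562 cells.

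Over all 35116 promoter entries, this tract opened 4.07% of starts. Over protein-coding genes with a named probe, the set used for the signal classes, it opened 4.58%. Among protein-coding genes that were not detected the share was 3.37%, among detected genes under a signal of 200 it was 4.09%, and between 3000 and 10000 it was 9.40%. Over 10000 it reached 33.3%, 47 of 141 starts. Ribosomal protein genes had it at 59.2% of starts and translation factors at 18.8%. With both groups left out, the share over 10000 was 14.9%, 13 of 87 starts, so most tract starts over 10000 belonged to these groups. Detected genes also differed from undetected ones in CpG content. The CpG ratio, the observed count of CG divided by that computed from the C and G content over 300 bases (250 before the start and 50 from it), was over 0.6 at 79.5% of starts of detected genes and at 44.6% of starts of undetected genes. The medians were 0.833 and 0.509. These are descriptions of annotated starts, and genes of 1 family are not independent of each other.

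**Figure D2:**
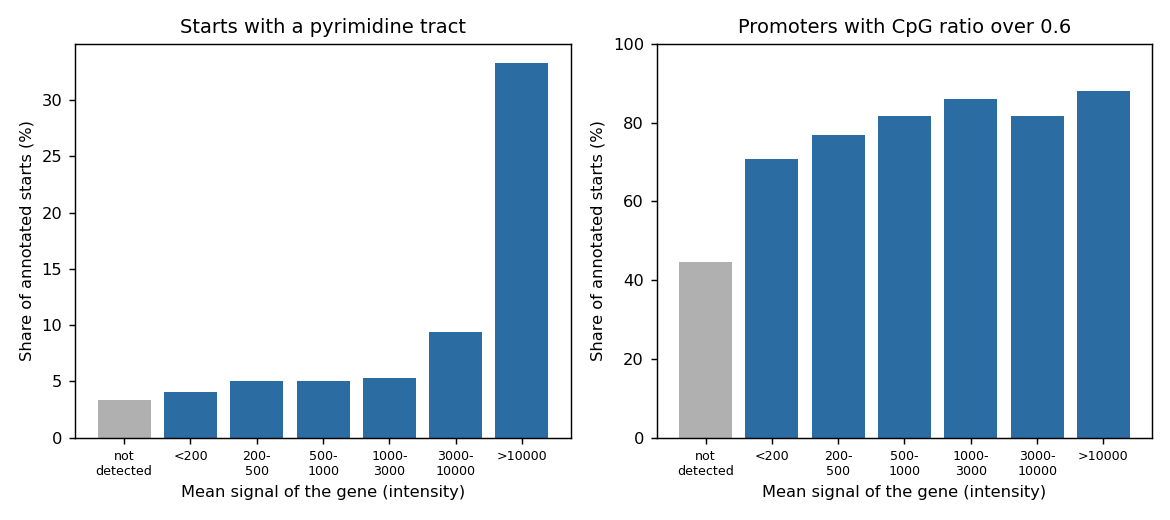
Share of annotated protein-coding gene starts (percent, vertical) with a pyrimidine tract (left) and with a CpG ratio over 0.6 (right), by the mean signal of the gene on the 2 arrays. Tract starts rise from 3.37% in undetected genes to 33.3% over a signal of 10000, while CpG-rich starts rise from 44.6% in undetected genes to 70.8% already in the dimmest detected class.

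Most genes on the red cell lists were detected, with the embryonic and fetal globins and without the adult beta globin. Of 76 genes on the 5 red cell lists 60 (78.9%) were detected. This share is not particular to red cell genes, since the metabolic lists reached 82.0%. Among the undetected members were SLC4A1, SPTB, EPB42, AHSP and CA1. Of 10 globin genes, 8 were. The fetal gamma globin HBG2 read 18306 and 18295, a mean of 18300.4 ± 7.33 (SD, n = 2), and its copy HBG1 read 15808 and 14037, a mean of 14922 ± 1252. The embryonic epsilon globin HBE1 read 3529 and 3318 and the embryonic zeta globin HBZ 2189.6 and 2134. The alpha globin HBA2 read 5114 and 5046, its copy HBA1 1626 and 1579 and theta globin HBQ1 2607 and 2487. Their near-identical copies (HBG1 and HBG2, HBA1 and HBA2) may share probe signal and are uncertain as single genes. The minor adult delta globin HBD was detected at 279.7 and 279. The adult beta globin HBB read 146 and 139.7, and mu globin HBM (109 and 107) and AHSP, the chaperone of free alpha globin that completes the list of 11 (143 and 148), were also undetected. HBB thus stood apart from HBE1, HBG1, HBG2 and HBD, its neighbours in the beta globin cluster.

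In the membrane and its skeleton 13 of 18 genes were detected. RHAG, the Rh-associated ammonia channel, read 3419 and 3483, the actin-capping TMOD1 2176 and 2244 and adducin ADD1 3212 and 3496. XK, which carries the Kx antigen, read 1024 and 1138, KEL 385 and 346, ankyrin ANK1 342 and 332 and RHD 165 and 167, the last just above the limit. The other 5 were undetected. The anion exchanger SLC4A1, band 3 of the red cell, read 132 and 137, beta spectrin SPTB 148 and 143, EPB42 109.7 and 110.0, dematin DMTN 123 and 126 and the water channel AQP1 129 and 141. Where every probe of a gene had to pass, 7 of the 18 remained detected; ANK1 was among those lost.

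In heme synthesis 13 of 17 genes were detected. ALAS2, the red cell form of the first enzyme, read 1971 and 1813, whereas the housekeeping form ALAS1 was near the limit at 173 and 163. Both were called from only some of their probes. UROD, which decarboxylates uroporphyrinogen, read 6593 and 6609, TMEM14C, which moves porphyrin precursors in mitochondria, 5913 and 5877, and FECH, which inserts the iron, 524 and 527. The heme-degrading HMOX1 (129 and 138) and HMOX2 (136 and 139) and the exporter ABCG2 (106 and 99.9) were undetected, and the heme exporter FLVCR1 (164 and 152) passed on 1 array only. The biliverdin reductases BLVRA (1879 and 1862) and BLVRB (645 and 645) were detected. In iron handling 14 of 16 genes were detected, among them the transferrin receptor TFRC (4423 and 4484), the ferritin-degrading receptor NCOA4 (8155 and 6398) and the mitochondrial iron importer mitoferrin SLC25A37 (845 and 778). TFR2, the second transferrin receptor, was close to the limit (193 and 161) and was lost at a detection p under 0.005. HAMP, which encodes hepcidin (155 and 153), and HFE (132 and 131) were undetected.

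Of 14 red cell enzymes 12 were detected, with GPX4, which reduces lipid peroxides, at 6995 and 6506 and superoxide dismutase SOD1 at 5276 and 4945. Carbonic anhydrase CA2 read 1213 and 1265. The adult form CA1 (141 and 133) and the red cell and liver pyruvate kinase PKLR (135 and 145) were undetected. Of 21 erythroid transcription factors 18 were detected, with GATA1 at 529 and 504, its cofactor ZFPM1 at 452 and 422, TAL1 at 351 and 332, LMO2 at 587 and 586, GFI1B at 306 and 281 and KLF1 at 226 and 219.8. NFE2, which acts at globin enhancers, read 2217 and 2299, the TAL1 relative LYL1 6934 and 7016 and the progenitor factor MYB 6861 and 6609.7. BCL11A (209 and 205) and ZBTB7A (169 and 161), which silence fetal globin in adult cells, were detected near the limit. ZBTB7A was not detected at a detection p under 0.005. SOX6, a partner of BCL11A, passed on 1 array only (156 and 159). LDB1, which bridges GATA1 and TAL1 complexes (132 and 122), and BACH1, a heme-sensing repressor (107 and 113), were undetected.

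**Figure D3:**
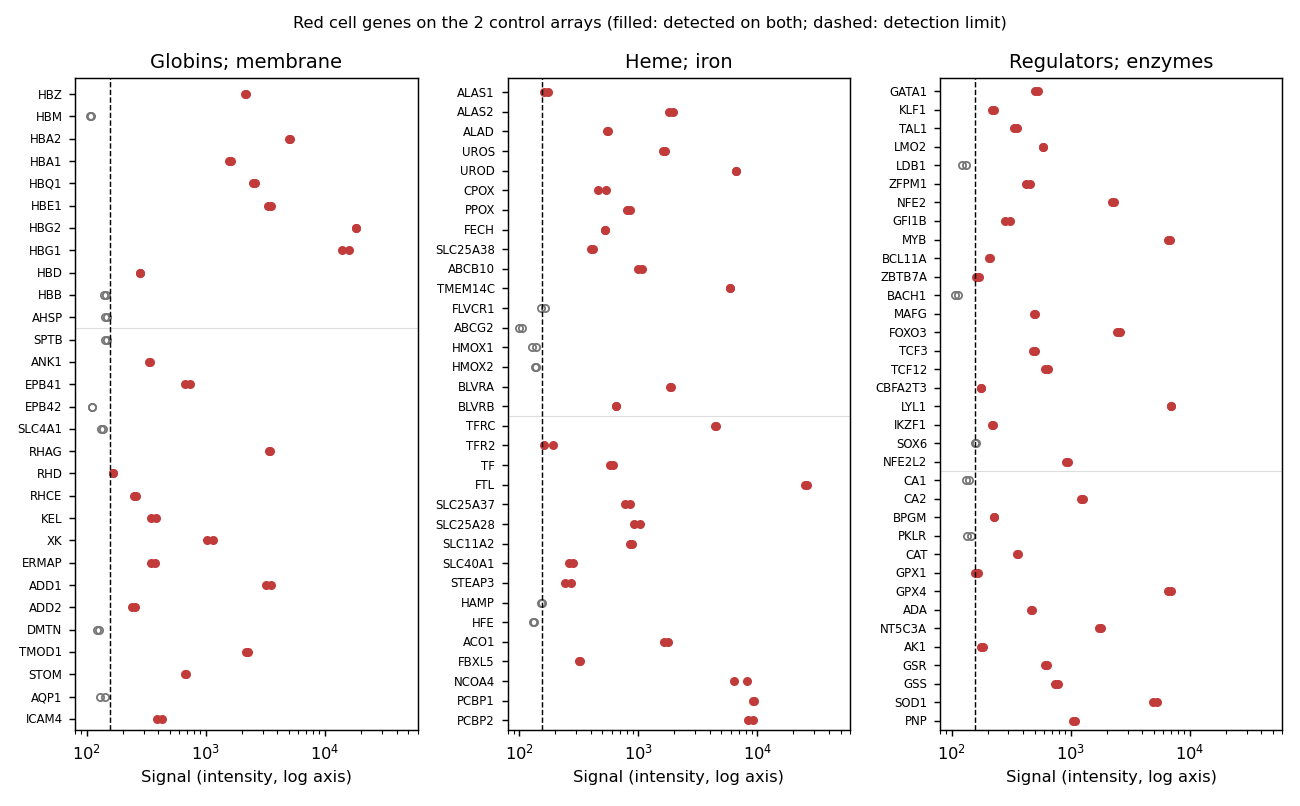
Signal (intensity, log axis) of each red cell gene on array 1 and array 2, 2 points per gene, filled where the gene was detected on both arrays and open where not. The dashed line is the detection limit near 156; HBG2 and FTL lie above 10000, while HBB, AHSP, SLC4A1 and CA1 lie left of the line.

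Markers of other lineages were mostly below detection. Over 14 lists of other cell types 35 of 209 genes (16.7%) were detected. Of 23 megakaryocyte and platelet genes, a lineage that K562 cells can be driven toward, 3 were detected: NRGN (349 and 350.3), GP1BA (181 and 177) and PPBP (181 and 166). The integrin chains ITGA2B (141 and 155) and ITGB3 (129 and 115), PF4 (130.5 and 112) and the factor FLI1 (129.8 and 129.8) were not. Of 20 granulocyte genes 5 were detected, led by MS4A3 (886 and 823) and lysozyme LYZ (311 and 340.2), with CSF3R (228 and 209.6), AZU1 (181 and 167) and FCGR3B (167 and 176) near the limit. Only 1 of the 5 stayed detected where every probe had to pass. The granule enzymes MPO (126 and 121), ELANE (123 and 144) and PRTN3 (125 and 109.7) were undetected. Of 18 monocyte genes 4 were detected, SPI1, the myeloid factor PU.1 (588 and 582), CD68 (516 and 515), FCGR1A (299.9 and 340.3) and ITGAM (198 and 206), but not CSF1R (134 and 135) or CD14 (152 and 155). PRG2 (244 and 276) was the 1 of 10 mast cell, basophil and eosinophil genes.

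Of 15 stem and progenitor genes 5 were detected. The stem cell factor receptor KIT read 476 and 489, GATA2 591 and 581, MECOM 355 and 325, MEIS1 313 and 283 and AVP 169.5 and 163. FLT3 (106 and 113) and PROM1 (123 and 118) were undetected, and CD34 passed on 1 array only (161 and 143). Of 45 B, T and NK cell genes 2 were detected, and none of the 14 NK cell genes, which ranged from 104 to 146 in mean signal. The 2 were CD24, a small sialoglycoprotein of B cell precursors and many epithelia, at 13701 and 13488, and LEF1, a Wnt pathway factor, at 656 and 672. The B cell genes PAX5 (113 and 103) and CD79A (144 and 155) were undetected, as were the T cell genes CD3E (114 and 110.4) and LCK (128 and 126).

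Outside the blood, 6 of 12 epithelial genes were detected (a share near the 46.4% of all genes). EPCAM, an adhesion molecule of epithelia, read 1656 and 1639.8, and the simple-epithelium keratins KRT19 1141 and 1079.9, KRT8 794 and 839 and KRT18 373 and 344. MUC1 read 341 and 309 and CLDN7 206 and 184. The epithelial cadherin CDH1 (106 and 109.7) and the stratified keratins KRT5 (103 and 106) and KRT14 (108 and 109.8) were undetected. KRT20, a further keratin of this list, was undetected too. Of 12 mesenchymal genes the intermediate filament VIM (10626 and 10330.0) and TAGLN (267 and 258) were detected, and of 14 neuronal genes GAD1, which makes the transmitter GABA (2831 and 2541), SLC17A7 (178 and 178) and the tubulin TUBB3 (163 and 175). SOX18 (388 and 392) and EGFL7 (169.9 and 162) were the endothelial genes detected. In muscle TNNI3 (334 and 362) and in liver ALB (167 and 168) were the single detected members of 14 each.

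**Figure D4:**
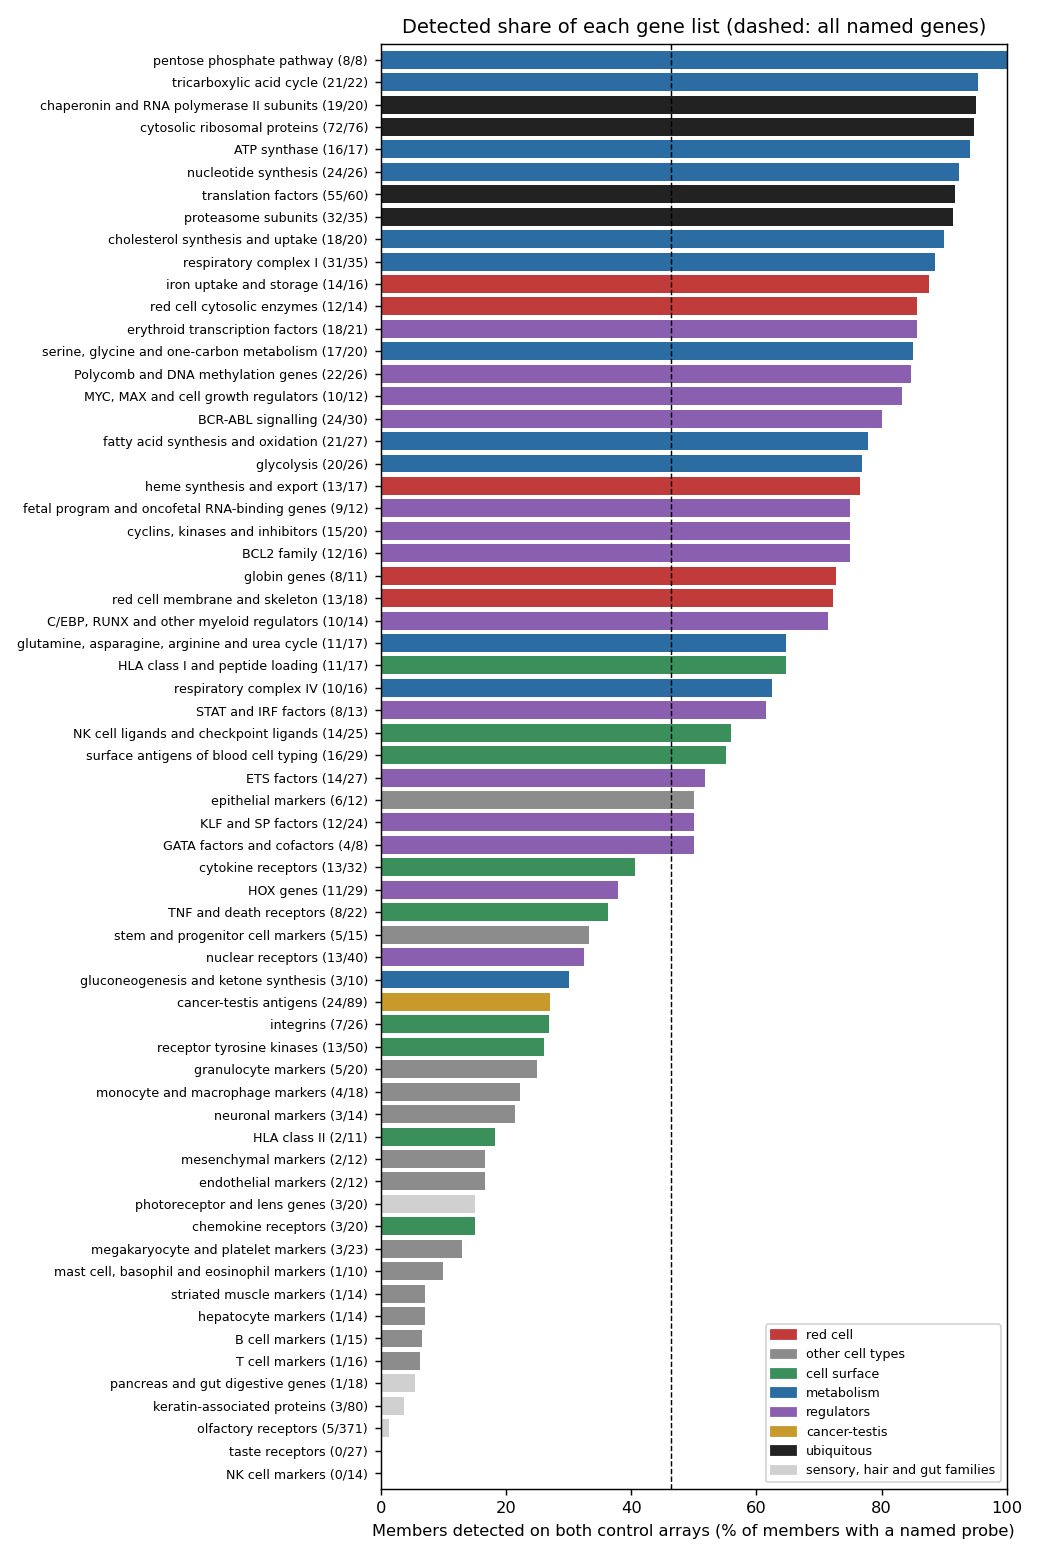
Share of members with a named probe that were detected on both arrays (percent, horizontal) for each of the 64 gene lists, with detected and measured numbers in the label and colours for the category. The dashed line is the 46.4% of all named genes, and 36 lists lie above it. Of these, the epithelial, KLF and SP, and GATA lists (50% each) fall below the 50.1% of protein-coding genes. Metabolic, ubiquitous and red cell lists stand at the top and lymphoid markers and sensory receptor families at the bottom.

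At the cell surface 85 of 228 genes (37.3%) on 9 lists were detected. Of 29 antigens used to type blood cells 16 were detected, and 9 where every probe had to pass. The tetraspanins CD81 (6594 and 7076) and CD151 (4576 and 4692), the amino acid transporter chain SLC3A2 (3337 and 3227) and basigin BSG (2925 and 2803) were among them. CD36 (107 and 105), CD38 (148 and 144), ANPEP, which is CD13 (153 and 142), and PTPRC, which is CD45 (149.8 and 153), were undetected. PTPRC passed on both arrays at a detection p under 0.05. CD59 (348 and 366) and CD55 (318 and 348), which shield cells from complement, were detected.

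Of 32 cytokine receptors 13 were detected. The erythropoietin receptor EPOR was low at 172 and 202. CSF2RA, the GM-CSF receptor alpha chain, read 1930.5 and 2114, but its signalling beta chain CSF2RB was undetected (154 and 126), as were IL3RA (109 and 115) and the common gamma chain IL2RG (139.8 and 138). Both chains of the interferon gamma receptor, IFNGR1 (2114 and 2173) and IFNGR2 (1953 and 1894), and both of the type I interferon receptor, IFNAR1 (347 and 341) and IFNAR2 (523 and 522), were detected. Of 50 receptor tyrosine kinases 13 were detected and none had a mean over 1000. FGFR3 read 632 and 613, RYK 622 and 606, MERTK 447 and 529 and KIT 476 and 489; EGFR (140.2 and 137), IGF1R (126 and 136) and PDGFRA (122 and 128) were undetected.

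Of 22 TNF and death receptors 8 were detected, among them both death-inducing TRAIL receptors TNFRSF10A (343 and 335) and TNFRSF10B (1064 and 1226). The decoy receptors TNFRSF10C (129.9 and 123) and TNFRSF10D (134 and 131) were not, nor was FAS (129.8 and 131). Of 26 integrins 7 were detected, with the shared chain ITGB1 (5070.4 and 4538), ITGB5 (1371 and 1319), its partner ITGAV (501 and 503) and the fibronectin receptor chain ITGA5 (764 and 772). ITGA4 (143 and 155) was undetected. Of 20 chemokine receptors 3 were detected. CCR6 read 18275 and 17558 on 1 of its 3 probes, with a further probe at 129 and 126, ACKR2 read 179 and 191 and CCR10 213 and 217; CXCR4 was undetected (128 and 142).

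K562 is the standard target of natural killer cell assays, in which HLA class I restrains killing and stress ligands promote it. Of 17 genes of class I and peptide loading 11 were detected, 6 where every probe had to pass. HLA-B (134 and 134), HLA-F (147 and 144) and HLA-G (109 and 114) were undetected. HLA-C was detected by a narrow margin at 159 and 157 and was lost at a detection p under 0.005, and HLA-E, the ligand of an inhibitory NK receptor, read 328 and 356. The light chain B2M (3421 and 3529), the trimming peptidase ERAP2 (4338 and 4508) and the transporters TAP1 (505 and 512) and TAP2 (200.4 and 207) were detected, whereas the class I activator NLRC5 (131 and 118) and the immunoproteasome subunit PSMB9 (134 and 136) were not. Of 11 class II genes 2 were detected, HLA-DRA (187 and 195) and HLA-DOB (161 and 165), without the class II activator CIITA (133 and 132) or the invariant chain CD74 (111 and 108).

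Of 25 ligands of NK cells and checkpoints 14 were detected. The ligands of the activating receptor NKG2D were MICB (536 and 531), ULBP1 (493 and 449.6), MICA (192 and 201) and ULBP2 (169 and 166), and those of DNAM-1 were PVR (698 and 623) and NECTIN2 (840.5 and 707). CD276 (476 and 505) and CD47 (542 and 605) were detected, and the PD-1 ligands CD274 (113 and 111) and PDCD1LG2 (101 and 99.1) were not. CLEC2D, a ligand of the NK receptor KLRB1, read 10396 and 10613 on its brightest probe, with 2 of 5 probes detected.

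Of 244 metabolic genes on 12 lists 200 (82.0%) were detected, 122 of them with a mean over 1000. Glycolysis had 20 of 26, led by enolase ENO1 (14252 and 13266), GAPDH (9060.5 and 8768) and the glucose transporter SLC2A3 (7706 and 7438). The pentose phosphate pathway had 8 of 8 (5 where every probe had to pass), the tricarboxylic acid cycle 21 of 22, complex I of the respiratory chain 31 of 35 and ATP synthase 16 of 17. MDH2, the mitochondrial malate dehydrogenase, read 11848 and 11809.9, citrate synthase CS 6657 and 6287 and the catalytic chain ATP5F1B 22317 and 22426. NDUFA5 (132 and 129), NDUFB1 (157 and 144), NDUFB4 (139 and 138), NDUFS6 (126 and 113) and ATP5MK (122 and 122) were not called.

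Synthetic pathways were on as well. PHGDH, which opens serine synthesis, read 16641 and 17106, followed in the path by PSAT1 (2620.5 and 2667) and PSPH (673 and 682), and 17 of 20 genes of serine and one-carbon metabolism were detected. MAT2A, which makes S-adenosylmethionine, read 14011 and 13344 and asparagine synthetase ASNS 10292 and 10660.5. Nucleotide synthesis had 24 of 26, with ADSL at 5250.5 and 5156, ATIC at 5065 and 4584 and PAICS at 4253 and 4101; DHODH passed on 1 array only (160.3 and 153) and CDA was undetected (129 and 138). Cholesterol synthesis had 18 of 20, but mostly under 1000, with HSD17B7 at 1768 and 1616 and SQLE at 1585 and 1622. Fatty acid genes had 21 of 27, with ETFA at 5307 and 4396, FASN at 3029.7 and 2693 and SCD at 2875 and 2762. The pathways of liver and kidney were not on in full. Gluconeogenesis and ketone synthesis had 3 of 10, and of the urea cycle OTC (128 and 129), ASL (138 and 144), ARG1 (141 and 135) and NAGS (108 and 116) were undetected while CPS1 (395 and 357) and ASS1 (1110.0 and 1136) were detected.

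Where an enzyme or subunit comes in a general and a tissue-restricted form, the general form was the one detected in most families looked at, a set chosen after the values were seen. Of 16 complex IV genes 10 were detected, and the 6 that were not are all restricted forms. COX4I1 read 12137 and 11906 and the lung form COX4I2 108 and 107. COX6A1 read 3155 and 2665 and the muscle form COX6A2 134 and 125, and COX7A2 read 8123 and 7813 and the muscle form COX7A1 106 and 105. The testis forms COX6B2 (156 and 146), COX7B2 (106 and 103) and COX8C (109 and 111) were undetected. In glycolysis the 6 undetected genes were HK3 (136 and 127), PKLR (135 and 145) and the testis or muscle forms GAPDHS (129 and 129), PGK2 (142 and 130.4), PGAM2 (115 and 110.3) and LDHC (141 and 135). PGK1 read 2626 and 2674 and LDHA 6415 and 5795. PDHA1 read 1231 and 1336 and the testis form PDHA2 138 and 123. MAT2A was on without the liver form MAT1A (110.0 and 112), the mitochondrial PCK2 (1451 and 1372) without the cytosolic PCK1 (143 and 138), and ARG2 (767 and 685) without the liver form ARG1. ENO2 (237 and 239.9) and ENO3 (468 and 441), the neuronal and muscle enolases, and ALDOC (668 and 646), the brain aldolase, were exceptions: they were detected beside ENO1 and ALDOA (3045 and 2797).

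**Figure D5:**
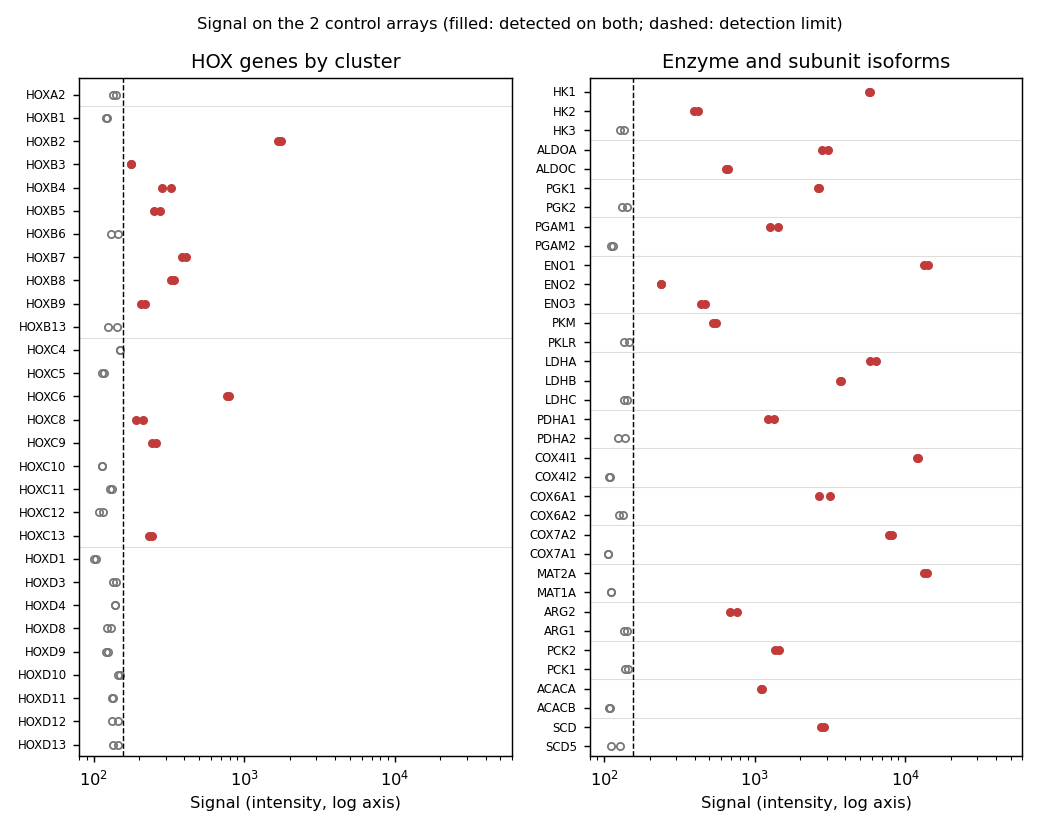
Signal (intensity, log axis) on array 1 and array 2 of the HOX genes by cluster (left) and of enzyme and subunit isoforms by family (right), filled where detected on both arrays and open where not, with the dashed detection limit. Filled points occur in the HOXB and HOXC clusters and not in HOXD, and most families on the right hold a general form far above the line and a restricted form left of it.

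The promoters of 2 such pairs and of LDHC are shown, chosen with their values in view: the pairs differ in CpG content, and LDHC does not follow them. Each is the 100 bases before the annotated start, 5′ to 3′ on the gene's strand (RefSeq, GRCh38.p14), with each CG in capitals.
COX6A1, chr12:120438013-120438112, plus strand: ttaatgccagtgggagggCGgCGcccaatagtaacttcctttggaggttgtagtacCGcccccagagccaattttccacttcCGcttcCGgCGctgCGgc
COX6A2, chr16:31428361-31428460, minus strand: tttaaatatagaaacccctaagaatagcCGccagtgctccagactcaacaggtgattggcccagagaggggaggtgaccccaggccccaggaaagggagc
PGK1, chrX:78104148-78104247, plus strand: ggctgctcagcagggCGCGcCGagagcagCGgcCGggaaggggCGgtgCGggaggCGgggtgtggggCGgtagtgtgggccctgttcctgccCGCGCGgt
PGK2, chr6:49787286-49787385, minus strand: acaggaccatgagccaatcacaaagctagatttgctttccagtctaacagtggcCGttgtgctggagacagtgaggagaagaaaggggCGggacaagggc
LDHC, chr11:18412218-18412317, plus strand: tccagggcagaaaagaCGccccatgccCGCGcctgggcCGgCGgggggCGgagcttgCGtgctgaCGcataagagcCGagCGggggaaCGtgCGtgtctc
Over 300 bases the CpG ratio was 0.868 for the detected COX6A1 and 0.247 for the undetected COX6A2, with 7 and 1 CG in the stretch shown. It was 1.03 for PGK1 and 0.334 for PGK2, with 12 and 2 CG. LDHC had a ratio of 0.991 and 12 CG and was not detected (141 and 135), so CpG content alone did not separate detected from undetected forms. Nor did it in PDHA1 and PDHA2, with ratios of 0.821 and 0.690, and of the annotated starts of COX7A2, detected at 8123 and 7813, 1 had a ratio of 0 and the other 1.10.

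Among regulators 176 of 285 genes (61.8%) were detected. Of 24 KLF and SP factors 12 were, with KLF6 at 3137 and 2794 and KLF9 at 1045 and 1055; KLF4 (143 and 151), KLF5 (133 and 126) and KLF8 (123 and 127) were not. KLF3, the target of the hairpin in the line not compared here, read 129.6 and 143 and was undetected. This sets only an upper bound and does not show that its RNA is absent. Of the 6 GATA factors GATA1 and GATA2 were detected, and GATA3 (140.5 and 130.3), GATA4 (115 and 109), GATA5 (120.0 and 118) and GATA6 (142 and 149) were not. Of 27 ETS factors 14 were detected, with ELK1 at 1414 and 1446 and ELF1 at 1297 and 1229; ERG (150.1 and 131) and FLI1 were not. CEBPB (4908 and 4599), CEBPG (3108 and 2834) and RUNX1 (464 and 444) were detected, and RUNX2 (141 and 139.8) and RUNX3 (147 and 149) were not. Nuclear receptors stood below the background share, with 13 of 40 detected, 7 where every probe had to pass, and none over 1000.

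The HOX genes, which set position along the body axis and mark stages of blood formation, were detected at 11 of 29 (37.9%), against 46.4% of all genes. Differences between the clusters were not tested. Of 10 HOXB genes 7 were detected, with HOXB2 at 1681 and 1742, HOXB7 at 412 and 387 and HOXB8 at 327 and 339. Of 9 HOXC genes 4 were detected, HOXC6 (771 and 788), HOXC9 (242 and 260.4), HOXC13 (242 and 231) and HOXC8 (211 and 190.5). None of 9 HOXD genes was detected, and their means lay between 102 and 146. HOXA2, the HOXA gene with a named probe here, read 133 and 141. The fetal and oncofetal RNA-binding genes were mostly on, 9 of 12. LIN28B, which holds back let-7 maturation in fetal blood, read 2169.8 and 2149.9, IGF2BP3 1398 and 1321, IGF2BP2 1348 and 1351 and HMGA1 3425 and 3298, whereas LIN28A (105 and 110.0), HMGA2 (138 and 136) and IGF2 (140.4 and 155) were undetected. Of 26 Polycomb and DNA methylation genes 22 were detected. The maintenance methyltransferase DNMT1 read 5579 and 6054, SUZ12 4289 and 3907 and DNMT3B 758 and 899, and DNMT3A (145 and 143) and TET2 (112 and 102) were undetected, while TET1 was detected (336 and 348).

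Of 30 genes of BCR-ABL signalling 24 were detected. The adaptor CRKL, a main substrate of the kinase, read 8154 and 7622, and GAB2 2668 and 2504. ABL1 read 2126 and 2303 and BCR 176 and 169; the probe positions were not mapped, so fusion and normal transcripts cannot be told apart. The STAT5 targets SOCS2 (13557 and 13891) and PIM1 (12531 and 11899) ranked 89 and 111 by mean signal, and CISH read 612 and 521. STAT5A read 2058 and 2033 and STAT5B 671 and 633. The kinase LYN read 2139.5 and 1886, whereas SRC (155 and 148) and FGR (146 and 150.0) were undetected. MYC, whose product drives cell growth, read 6269 and 6308, and its partner MAX 243 and 235. Of 16 BCL2 family genes 12 were detected. The survival gene BCL2L1, which encodes BCL-XL, read 4530.4 and 4322, MCL1 773 and 809 and the death-inducing BCL2L11, which encodes BIM, 822 and 834. BCL2 itself had no probe that passed on both arrays (brightest probe 144 and 167), though different probes passed on each, and BCL2A1 was undetected (128 and 137).

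Of 20 cyclins, kinases and inhibitors 15 were detected. Of the D cyclins CCND3 (6063 and 5246) and CCND2 (4163 and 4459.8) were detected and CCND1 (108 and 109.6) was not, and their partners CDK4 (3991 and 4001) and CDK6 (1009 and 1024) were. The inhibitors CDKN1A (647 and 619) and CDKN1B (493 and 462) were detected. CDKN2A (127 and 123) and CDKN2B (143 and 137), which hold back CDK4 and CDK6, were undetected. Both lie in a run of 23 neighbouring genes with a named probe on chromosome 9, from IFNB1 to TUSC1, none of which was detected on either array (means of 98.0 to 148). Most of the run consists of type I interferon genes, and it also holds MTAP, an enzyme of the methionine salvage path (145 and 150.0). With 50.1% of protein-coding genes detected, some such runs are found whatever the order of genes. The longest undetected run held 62 genes, and run lengths were not tested.

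Cancer-testis antigens, normally made in germ cells, were detected at 24 of 89 genes (27.0%). PRAME read 6342 and 6353. Of 12 GAGE genes 11 were detected, up to GAGE4 (14046 and 13194), but these are near-identical copies whose probes may read each other, so their number is uncertain. Of 24 MAGE genes 7 were detected, with MAGEA1 at 969 and 1028, MAGEA6 at 913 and 1053 and MAGEC1 at 638 and 654. The SSX, CT45 and CTAG genes were below the limit on at least 1 array, SSX4 passing on 1 (164 and 144).

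Families that belong to sensory, hair and digestive tissues were nearly all off. Of 516 such genes 12 (2.33%) were detected, and none had a mean over 1000. Of 371 olfactory receptors 5 were detected, OR8G5 (251 and 232), OR2B6 (182 and 178), OR11H1 (160.1 and 171), OR2W3 (162 and 161) and OR9A4 (157 and 163), 1.35% of the family. None of 27 taste receptors and 3 of 80 keratin-associated proteins were detected. The lens crystallins CRYBB2 (228 and 214), CRYBA4 (173 and 213) and CRYGS (203 and 177) and the lipase CEL (225 and 228) were the remaining ones. By contrast 178 of 191 genes (93.2%) of ribosomes, translation, the proteasome, the chaperonin and RNA polymerase II were detected.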

How the data were processed

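Per the file headers, the authors deposited, per array, each probe's mean signal as a linear intensity with its detection p-value, without normalization. Undetected probes stayed well above 0, so no background had been subtracted. The steps between p-values correspond to 770 negative-control bead types. The name of the scanner software is not stated in the sources used here. A second deposited table holds the authors' processed intensity values and served as an alternative. It is on the same linear scale as the scanner values, and its software is not named either.

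Only the 2 control arrays were used. Probe names came from GEO's platform annotation, updated by gene identifier: 30112 had 1 symbol, 8 had several and 17202 are unnamed here. The probe with the highest mean signal stood for each gene. The 2 arrays limit the precision, and errors after ± are standard deviations over them. No test was run, since no groups were compared. The members and the 64 gene lists were chosen with earlier results of these data known. Of 1924 list entries, 1849 had a named probe, and the others were not analysed here. Genes were named by rule: the 25 of highest signal, the core members of each list, the 3 highest and the few undetected members of a list, the detected members of lists of other cell types, and the 6 genes that differed most between arrays or between their own probes. Any other gene in the text was picked with its values in view. Promoter sequences came from RefSeq (GRCh38.p14), with an entry for 15034 named genes. Alternatives were other detection thresholds, other rules for genes with several probes, each array alone, the authors' table, and neqc of limma 3.58.1 in R 4.3.3 (offset 16). Tables were computed in Python 3.11.15 with pandas 2.3.3 and numpy 2.4.6. The calling step was also run on simulated data with a simplified background, which gives no error rate for calls near the limit here.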

Additional observations from a re-analysis of the deposited data

Results flagged for a closer look

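Probes without a gene name here were left out of every count of genes, and 3122 of these 17202 probes (18.1%) were detected on both control arrays, against 40.2% of named probes. Their highest mean signal was 36093, and 178 of them had a mean over 10000. They were flagged as signal in data that the gene counts do not use. What they measure was not tested.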

How the results depend on the processing

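The number of detected genes, 9302, was 9948 at a detection p under 0.05, 9050 under 0.005, 9299 where the brightest probe had to pass, 7160 where every probe had to pass, and 9563 to 9677 on 1 array alone. Lists above the share of all genes numbered 36 under all of these but the rule for every probe, which left 33. Of the 25 genes of highest signal 25 were shared under neqc and under the authors' table and 24 to 25 on 1 array alone. The same probe stood for each gene in these settings. Because neqc keeps the order of signals within an array, its result was nearly fixed in advance and is no independent check. Only 12 were shared where the mean of a gene's probes replaced the brightest probe. The spread between the arrays (standard deviation of the log2 ratio over named probes) was 0.0953, and 0.181 after neqc, which subtracts the background, 0.0916 in the authors' table and 0.0980 over detected probes. List counts that moved by over 1.5 times under the rule for every probe and are not given in the report were stem and progenitor (5 to 3), mesenchymal, endothelial and HLA class II (2 to 1 each), hepatocyte (1 to 0) and MYC and MAX genes (10 to 6). Cytokine receptors went from 13 to 8, as did receptor tyrosine kinases. Olfactory receptors went from 5 to 13 at p under 0.05 and to 3 under 0.005, and were 11 without array 1 and 8 without array 2. At p under 0.05, mast cell and T cell genes went from 1 to 3, B cell genes from 1 to 2 and taste receptors from 0 to 1, and endothelial genes went from 2 to 1 under 0.005. On 1 array alone hepatocyte, mast cell, B cell and T cell genes reached 2 and taste receptors 1. Of 292 named genes followed, 226 kept their call under every alternative and 66 changed it under at least 1. ALAS1, ALAS2, FECH, ABL1, BCR, BCL11A, ITGB1, LDHA, HK1, HMGA1, RUNX1, MS4A3, LYZ, PVR and CSF2RA were called from some of their probes only and were lost where every probe had to pass. Undetected signals lie within the negative-control range and have no order. No paired analysis was run because no groups were compared.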

Other observations

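Of 17773 protein-coding genes 50.1% were detected, of 798 long noncoding RNA genes 16.3%, of 560 miRNA genes 1.79%, of 279 small nucleolar RNA genes 24.7% and of 528 transcribed pseudogenes 29.9%. Small classes were higher, with 12 of 16 small nuclear RNA genes and 3 of 3 rRNA genes detected. The differences were not tested. The snoRNA host gene SNHG32 read 14845 and 15654, SNHG5 read 13499.9 and 13767 and MEG3, an imprinted long noncoding RNA, read 7473 and 6992. Gene length and probe choice differ between these classes and their part was not tested.

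Neighbouring protein-coding genes with a named probe and the same call were listed as runs along chromosomes. With 50.1% of protein-coding genes detected, some runs are found whatever the order of genes. Run lengths were not tested against this share. The longest run of undetected neighbours was 62 genes on chromosome 11, from OR4B1 to APLNR, most of them olfactory receptors, and 39 neighbours from KRT12 to KRT15 on chromosome 17 hold hair keratins and their partners. A run of 21 from OR51D1 on chromosome 11 ends at the adult globin HBB. The longest run of detected neighbours was 18 genes on chromosome 12, from PYM1 to NABP2, among them CDK2, RPS26, ERBB3 and RPL41. A run of 13 on chromosome 21 from IFNAR2 to MRPS6 holds IL10RB, IFNAR1 and IFNGR2. By chromosome, the detected share ran from 37.6% on X and 38.9% on chromosome 4 to 54.4% on chromosome 16.

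Probes of 1 gene could disagree. In 1945 genes 1 probe was detected on both arrays and another on neither, and in 388 of them the detected probe had a mean over 1000. LAIR1, an inhibitory receptor of immune cells, ranked 4 on a probe of 35184 and 29437, while its other probe read 125 and 123. TMSB4X, which binds free actin, read 28029 and 27158 and 114 and 114 on its other probe. The same held for RPSAP9 (29445 and 30062 against 131 and 145), SLC7A5P2 (24861 and 25197 against 145 and 136), RRP7BP (22730.1 and 21217 against 133 and 122) and CLUAP1 (27517 and 25370.2 against 156 and 155). The probe sequences were not used here, so isoforms, near-identical copies and misnamed probes cannot be told apart. The signals of these genes are among the least certain of the highest ranks. F2R, RPL41 and RPL32, with every probe detected, also fell to ranks 46, 28 and 186 under the mean of their probes. Detected probes of 1 gene could thus disagree widely too.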
